A study of Caenorhabditis elegans with 2 samples.

Results

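The genes described here encode subunits of eukaryotic translation initiation factor 3 (eIF3), and they are 10 of the 19983 protein-coding genes in the RefSeq annotation of the C. elegans assembly WBcel235, also called ce11. The members are eif-3.B, eif-3.C, eif-3.D, eif-3.E, eif-3.F, eif-3.G, eif-3.H, eif-3.I, eif-3.K and eif-3.L. They were selected on their gene names with the promoter peaks of these same lists already known, so their counts and ranks are given as a description and carry no test. Chromatin immunoprecipitation followed by sequencing (ChIP-seq) mapped where the tagged protein C38D4.7, annotated as a C2H2-type domain protein, sat on DNA in whole late embryos of the strain OP708. The strain carried the mutation unc-119(tm4063) and the insertion wgIs708, a construct written C38D4.7::TY1::EGFP::3xFLAG that also brings unc-119(+), and the labels do not name the promoter that drives it. Both samples were biological replicates of this single transgenic strain, of mixed sex, 4 hours old and synchronised by bleaching eggs, with chromatin sonicated to a stated size range of 200 to 800 and precipitated with an antibody against GFP. No second condition and no list from an untagged strain was used here.

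In animals, eIF3 is the largest of the initiation factors. It holds the small ribosomal subunit while the initiator tRNA and the messenger RNA are loaded, and it keeps the ribosomal subunits from joining too early. Its core is built from proteins with PCI domains (subunits a, c, e, k, l and m) and proteins with MPN domains (f and h), domains shared with the proteasome lid and the COP9 signalosome, while b, d, g and i lie at the periphery and j is loosely attached.

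A promoter here starts 1000 bp before a gene's annotated start and ends 200 bp after it, and a summit is the position of highest signal within a called region. Each window below is centred on the summit with the highest score in the pooled list. That list holds the regions, peaks and background alike, called from both replicates' alignments together. Every window is read 5′ to 3′ on the strand of the gene from the RefSeq sequence of WBcel235 (ce11). The windows show the DNA under the 4 member summits that can be printed here. The window of eif-3.B is at chrII:14795179-14795329 on the plus strand, that of eif-3.D at chrIII:8971759-8971909 on the minus strand, that of eif-3.G at chrII:8442431-8442581 on the plus strand and that of eif-3.K at chrV:12953419-12953569 on the plus strand. Capitals mark CAACGA in eif-3.B and the same 6-mer read on the other strand in eif-3.G, GTGGCG in eif-3.K, and in eif-3.D the 20 bases most like a stretch under the eif-3.C summit.
eif-3.B: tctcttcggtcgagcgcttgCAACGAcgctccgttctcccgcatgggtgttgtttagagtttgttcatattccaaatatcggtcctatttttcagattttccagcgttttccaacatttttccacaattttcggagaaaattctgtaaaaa
eif-3.D: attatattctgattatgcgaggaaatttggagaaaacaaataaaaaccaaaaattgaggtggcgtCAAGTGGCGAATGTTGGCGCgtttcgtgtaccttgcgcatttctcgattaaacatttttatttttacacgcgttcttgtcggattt
eif-3.G: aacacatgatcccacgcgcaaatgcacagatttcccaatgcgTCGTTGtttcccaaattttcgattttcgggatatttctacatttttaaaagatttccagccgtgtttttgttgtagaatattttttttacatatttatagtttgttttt
eif-3.K: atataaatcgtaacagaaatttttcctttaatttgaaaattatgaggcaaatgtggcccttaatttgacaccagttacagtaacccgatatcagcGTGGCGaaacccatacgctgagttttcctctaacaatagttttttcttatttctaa

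Promoters of 4 of the 10 members, eif-3.C, eif-3.D, eif-3.E and eif-3.I, held a summit of the authors' optimal list, which was derived with the irreproducible discovery rate, a measure built from the ranks of regions in the replicates, and which also holds some regions ranked far apart in them. Over all protein-coding genes 385 promoters held an optimal summit, which is 1.93%. Promoters of 7 of the 10 members, the same 4 with eif-3.B, eif-3.G and eif-3.K, held a summit in the pooled list, in the replicate 1 list and in the replicate 2 list alike. These longer candidate lists reached 33.6% of all promoters when pooled, 33.9% in replicate 1 and 30.7% in replicate 2. The authors label the pooled list as peaks and background, so a summit in it need not mark a bound site. Among only the 5000 highest-scoring pooled lines, 6 members kept a summit, without eif-3.K, beside 9.13% of all promoters. The promoters of eif-3.F, eif-3.H and eif-3.L held no summit in any list. Because the members were chosen with these peaks known, nothing further is read from the counts.

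Among the members that encode PCI subunits of the core, eif-3.C, eif-3.E and eif-3.K held promoter summits and eif-3.L did not. The gene eif-3.C (T23D8.4, I:9976426-9979662, minus strand) encodes the subunit that, with subunit a, anchors the core. Its summit ranked 114 in the pooled list by the authors' score, 120 in replicate 1 and 133 in replicate 2, where rank 1 is the highest score of each list. The scores were 523.6, 353.0 and 167.4, and they can be compared only within a list. The summit lay at −239 bp from the gene start in the pooled list and in replicate 1, and at −241 bp in replicate 2. This was the best placed member in all of the lists, and the replicates put its summit within 2 bp of each other. The −log10 of the authors' q-value there was 3.06 in the pooled list and 2.8 in replicate 2, in each case the highest value in that list. The pooled summits of eif-3.E (rank 448) and eif-3.I (rank 382) had the same value of 3.06, so it did not set eif-3.C apart from them.

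The gene eif-3.E (B0511.10, I:10640523-10642281, minus strand) encodes a core subunit whose mammalian counterpart is also known as Int6. Its summit ranked 448 pooled, 574 in replicate 1 and 594 in replicate 2, with scores of 220.9, 132.1 and 70.25. It lay at −170, −171 and −187 bp from the gene start. It was the optimal summit nearest to a start among the members. The replicates gave it almost the same rank.

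The gene eif-3.K (T16G1.11, V:12954002-12955229, plus strand) encodes a core subunit that worms can lose and stay viable, with raised resistance to endoplasmic reticulum stress. Its best summit ranked 7884 pooled with a score of 86.93 at −508 bp. In replicate 1 the best of its summits ranked 7792 (score 60.4, −452 bp) and another ranked 8016 (score 59.79, −684 bp), and in replicate 2 a single summit ranked 14975 (score 28.9, −664 bp). The pooled summit thus fell between the separate summits of the replicates, and it was the lowest ranked of the 7 members with a summit. The −log10 of the q-value was 0.281 in the pooled list, 0.278 for the best summit of replicate 1 and 0.0863 in replicate 2. The best summits of the replicates were 212 bp apart, while the closest pair was 20 bp apart. The gene eif-3.L (C17G10.9, II:5619584-5622483, minus strand), which encodes the partner of subunit k and is likewise dispensable in worms, had its nearest pooled summit 3104 bp downstream of its start, past the end of the gene, at rank 11334.

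Neither member encoding an MPN subunit of the core had a promoter summit. For eif-3.F (D2013.7, II:9331643-9333970, plus strand) the nearest summits lay just past the downstream edge of the window, at 238 bp from the start in the pooled list (rank 16175), 267 bp in replicate 1 (rank 19497) and 210 bp in replicate 2 (rank 17082). For eif-3.H (C41D11.2, I:4444719-4446613, plus strand) the nearest summit of the pooled list and of replicate 1 lay at −1125 bp, just past the upstream edge, at ranks 24969 and 16522. In replicate 2 the nearest was 3196 bp downstream of the start, at rank 13149. All of these summits lay outside the optimal list.

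All 4 members that encode peripheral subunits, eif-3.B, eif-3.D, eif-3.G and eif-3.I, had a pooled promoter summit. The pooled list reached 33.6% of all promoters. The PCI, MPN and peripheral classes hold few members each, and they were not compared. The gene eif-3.I (Y74C10AR.1, I:2485861-2489787, plus strand) encodes the WD40-repeat subunit. Its summit ranked 382 pooled, 367 in replicate 1 and 502 in replicate 2, with scores of 244.9, 169.5 and 75.11. It lay at −276, −276 and −245 bp. After eif-3.C it was the highest ranked member in each list.

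The gene eif-3.D (R08D7.3, III:8969635-8971578, minus strand) encodes the subunit whose human counterpart can bind the cap of messenger RNA. Its summit ranked 627 pooled, 577 in replicate 1 and 1992 in replicate 2, with scores of 182.2, 131.7 and 50.54. It lay at −256, −254 and −263 bp. The member was just inside the optimal list, whose lowest score was 180.1, and the −log10 of its q-value was 2.4 pooled and 0.783 in replicate 2. Of the optimal promoter summits away from small RNA genes and with a counterpart in both replicates, 17 of 212 ranked as late as eif-3.D or later in replicate 2. A lower rank in replicate 2 than in replicate 1 was common among them, at 133 of 212 (62.7%), and the replicate 2 list was shorter.

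The genes eif-3.B (Y54E2A.11, II:14795404-14798235, plus strand), for a scaffold of the periphery, and eif-3.G (F22B5.2, II:8442767-8444175, plus strand), for a subunit with an RNA recognition motif, were the members next below the optimal list. For eif-3.B the ranks were 1921 pooled, 3745 in replicate 1 and 1848 in replicate 2, with scores of 127.9, 74.18 and 51.43 at −150, −200 and −143 bp. For eif-3.G they were 2160 pooled, 1806 in replicate 1 and 4257 in replicate 2, with scores of 123.9, 89.61 and 42.13 at −261, −261 and −306 bp. The replicates ordered this pair differently, with eif-3.G ahead in replicate 1 and eif-3.B ahead in replicate 2. The −log10 of the q-value was 0.975 for eif-3.B and 0.893 for eif-3.G in the pooled list. In the same order it was 0.566 and 1.01 in replicate 1, and 0.838 and 0.392 in replicate 2.

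**Figure D1:**
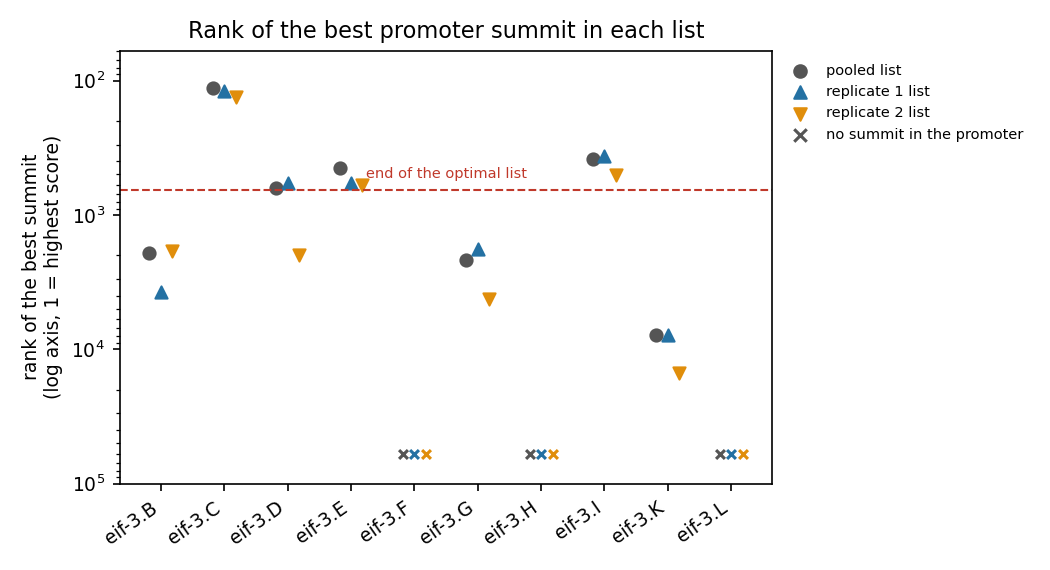
The plot gives the rank of the best promoter summit of each member in the pooled list and in both replicate lists (log axis, 1 is the highest score), with crosses where the promoter held none. Only eif-3.C, eif-3.E and eif-3.I lie above the dashed line, the length of the optimal list, in all of these lists, eif-3.D drops below it in replicate 2 at rank 1992, and eif-3.F, eif-3.H and eif-3.L have crosses throughout.

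The optimal summits of the members lay in a narrow stretch upstream of the start, from −276 to −170 bp with a median of −247.5 bp over 4 genes. The pooled summits of the 7 members ran from −508 to −150 bp with a median of −256 bp. Over all 385 promoters with an optimal summit the median was −297 bp, with quartiles at −548 and −168 bp, and 116 of them (30.1%) had the best summit between −300 and −150 bp. Those bounds were not planned beforehand and enclose the members' own optimal summits, so this share is only a description. The optimal summits of the 4 members lay between the quartiles of −548 and −168 bp. Of the 4 optimal ranks, that of eif-3.C (114) was above the upper quartile of the best ranks over these promoters (188), those of eif-3.I and eif-3.E (382 and 448) lay between the median of 328 and the lower quartile of 485, and that of eif-3.D (627) was below it. Over the 6716 promoters with a pooled summit the median best rank was 11454, and all 7 members with one ranked above that. The distance quartiles over those promoters were −621 and −88 bp, and the best pooled summits of all 7 members lay between them. The best summits of all 7 members were intergenic. No optimal summit lay inside a member's gene body, and 0 member promoter summits lay within 200 bp of a tRNA, snRNA, snoRNA or rRNA gene. The matching shares over all promoters were not counted, so these counts only describe the members.

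**Figure D2:**
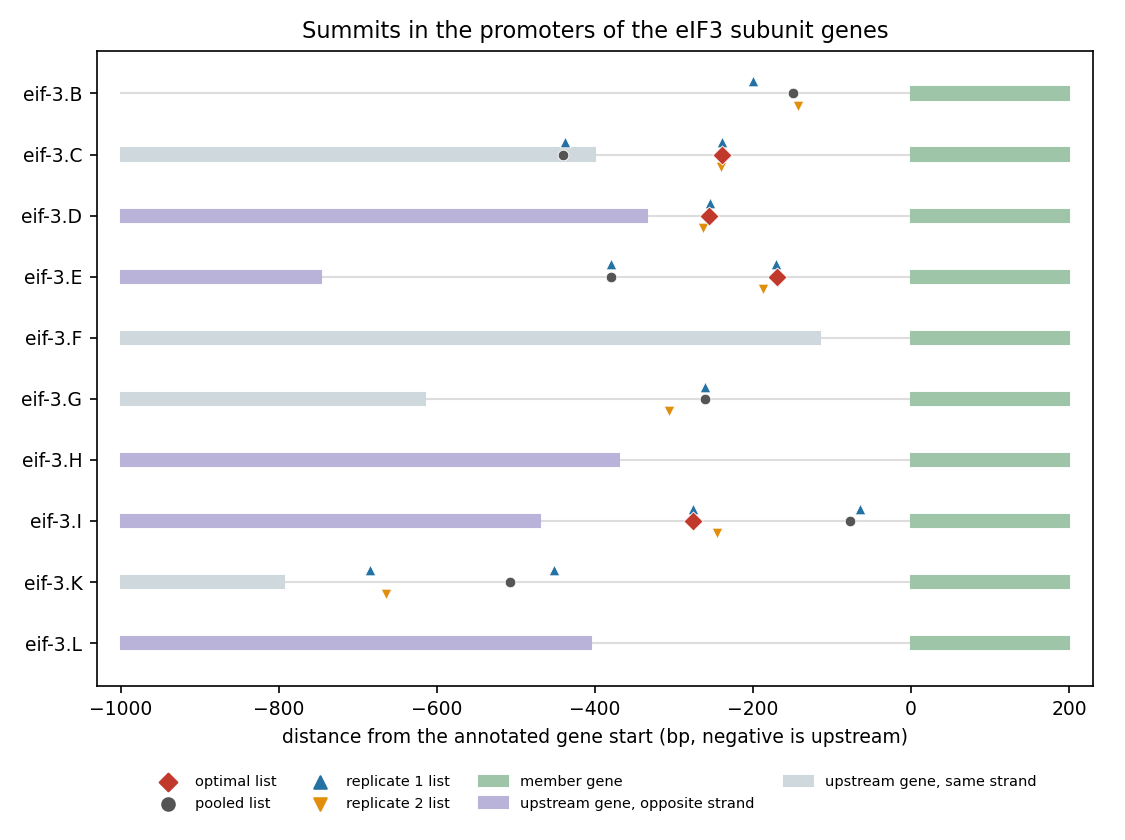
The map places every summit in the members' promoters by distance from the annotated gene start (bp, negative is upstream), by list, with the upstream gene shaded by its strand and an optimal diamond standing for the pooled summit at the same position. The optimal diamonds of eif-3.C, eif-3.D, eif-3.E and eif-3.I sit between −276 and −170 bp, while the summits of eif-3.K are spread from −684 to −452 bp.

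The replicates placed the best summits 9 bp apart for eif-3.D, 16 bp for eif-3.E, 31 bp for eif-3.I, 45 bp for eif-3.G and 57 bp for eif-3.B. The called regions of the replicates overlapped at all 7 members, by 120 bp at eif-3.C, 253 bp at eif-3.K and 408 to 456 bp at the other 5. Median region widths were 470 bp in replicate 1 and 460 bp in replicate 2, so these overlaps mostly restate the distances between summits. The share of overlapping regions over all promoters was not counted. The pooled region of eif-3.C was 166 bp wide, against a median of 470 bp over the pooled list. A weaker additional summit stood beside the optimal one at 3 members in the pooled list and in replicate 1. For eif-3.C it lay at −440 bp in the pooled list (rank 17291), in an exon of sys-1 outside the coding part, for eif-3.E at −380 bp (rank 18815) and for eif-3.I at −77 bp (rank 7302). These neighbours stood 201, 210 and 199 bp from the optimal summits. Such spacing was frequent: 260 of 629 nuclear optimal summits (41.3%) had another pooled summit within 220 bp, and the smallest gap in the list was 199 bp.

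**Figure D3:**
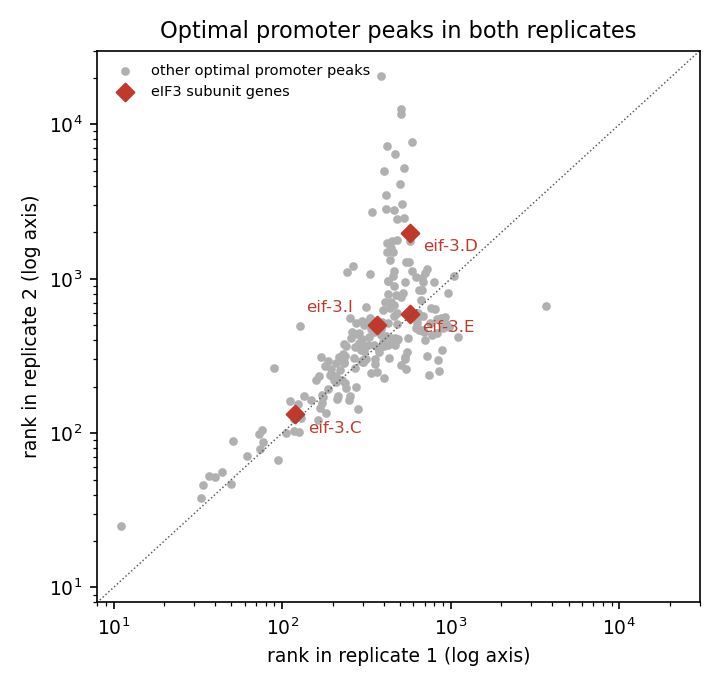
Each point is 1 of the 212 optimal promoter summits away from small RNA genes with a counterpart in both replicates, by its rank in replicate 1 and in replicate 2 (log axes), with the members as diamonds and a dotted line of equal rank. The diamonds of eif-3.C, eif-3.E and eif-3.I lie near the line and eif-3.D lies above it, at rank 577 in replicate 1 and 1992 in replicate 2.

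At 3 of the members with an optimal summit the summit lay between 2 divergent genes and cannot be given to 1 of them. The starts of eif-3.D and R08D7.4 were 335 bp apart, and the summit was at −79 bp from the start of R08D7.4, closer than to eif-3.D. The starts of eif-3.I and abtm-1, which encodes a mitochondrial ABC transporter, were 470 bp apart, and the summit was at −194 bp from abtm-1, also closer than to eif-3.I. The starts of eif-3.E and B0511.17 were 748 bp apart, with the summit at −578 bp from B0511.17 and so nearer to eif-3.E. The eif-3.C summit stood in the 400 bp gap downstream of sys-1, a beta-catenin gene on the same strand, and had no divergent partner. The divergent pairs eif-3.H with C41D11.3, 371 bp apart, and eif-3.L with npl-4.2, 406 bp apart, had no summit in the member's promoter. An upstream gene on the same strand lay 115 bp before eif-3.F (wbp-2), 615 bp before eif-3.G (lips-10), 793 bp before eif-3.K (pqn-68) and 2748 bp before eif-3.B (Y54E2A.10). Altogether 3 of 5 members with a divergent upstream gene and 1 of 5 with a same-strand upstream gene held an optimal summit, numbers too small to compare.

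Many C. elegans messages receive a spliced leader by trans-splicing, so an annotated start can be the splice site and not the place where transcription begins. The splice acceptor TTTCAG, searched on the gene strand alone, stood directly before the annotated start of eif-3.C, eif-3.D, eif-3.G, eif-3.H and eif-3.L. These are 5 of 10 members, beside 2682 of 19971 protein-coding genes (13.4%). For these members the distances above are counted from a start next to that sequence. Whether it is used as a splice site, and where transcription truly begins at any member, was not measured. The annotated start of eif-3.K was also its coding start, so its distances are counted from there. Genes on the same strand followed closely behind several members, among them scp-1 at 43 bp after eif-3.F, T23D8.3 at 110 bp after eif-3.C and evl-20 at 131 bp after eif-3.G. On the upstream side, wbp-2 ended 115 bp before eif-3.F on the same strand. Worm genes so spaced can share an operon promoter, which the annotation used here does not mark.

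The 5 6-mers taken from earlier results of these data were CGAACC, then CGCACA, then GTTCGA, then CCGCCC and then CCGCAC, searched on both strands. CGCACA and CCGCAC overlap by 5 letters. None of the 5 was found within 50 bp of the best pooled summit in any of the 7 members with one. In the 219 windows at optimal promoter summits away from small RNA genes, CCGCAC was found in 24.7%, CGCACA in 24.7% and CCGCCC in 17.4%, while the 6884 windows at lower-ranked pooled promoter summits held them in 2.88%, 3.72% and 4.2%. Over the whole promoter CCGCAC was found in 1 of 10 members (eif-3.L, which had no summit) and in 15.7% of all promoters. GTTCGA was found in 5 of 10 member promoters and in 35.6% of all, CGAACC in 2 and in 17.4%, CGCACA in 1 and in 23.1%, and CCGCCC in 0 and in 19.3%.

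Both 6-mers marked in the printed windows were picked by looking at the members, so their counts only describe them. Within 75 bp of the best summit CAACGA was found on either strand in 4 of 7 members, eif-3.B, eif-3.C, eif-3.E and eif-3.G, and in 9.59% of the optimal and 6.52% of the lower-ranked windows. Its first base stood at −55, 37, −16 and −33 bp from the summit, so it kept no fixed place. In the whole promoter it was found in 8 of 10 members, all but eif-3.I and eif-3.K, and in 38.8% of all promoters. GTGGCG was found within 75 bp in eif-3.C, eif-3.D and eif-3.K, and in 7.76% of the optimal and 5.2% of the lower-ranked windows. It began at −17 bp from the summit in eif-3.C, at −17 and −7 bp in eif-3.D and at 20 bp in eif-3.K, and the copy of eif-3.D at −7 bp is the one inside its capitals.

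The windows of eif-3.C and eif-3.D were the most alike of the 21 pairs of members, with 17 of 20 bases equal without gaps, while the best match of every other pair had 12 to 16. The shared stretch, in capitals in the eif-3.D window, holds an unbroken run of 10 equal bases, CAAGTGGCGA. A longer run of 11 equal bases stood in the best match of eif-3.G with eif-3.I, on opposite strands, where 16 of 20 bases were equal. The run of eif-3.C and eif-3.D was taken from these 2 windows, so its presence in them was fixed beforehand. It was found in 2 of the 219 optimal windows, which are these 2 genes. It was also found in 1 of the 6884 lower-ranked windows and in 29 of 19971 promoters, and these counts only describe it. The share of G and C within 50 bp of the summit was 54.5% for eif-3.C and 52.5% for eif-3.E, and from 32.7% (eif-3.G) to 41.6% (eif-3.K) for the other 5. Over the optimal promoter summits the median was 48.5% with quartiles at 43.6% and 53.5%, and over the lower-ranked ones it was 39.6% with quartiles at 33.7% and 46.5%. The windows of eif-3.D (38.6%) and eif-3.I (39.6%) were thus poorer in G and C than most windows at optimal promoter summits. Within 50 bp of the summit 6 6-mers were shared by 4 or more of the 7 members, all rich in A and T, and they were found in 11.9% to 23.3% of the optimal windows and in 14.7% to 34.6% of the lower-ranked ones.

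The remaining eIF3 subunits did not hold an optimal summit (0 of 3). For egl-45, which encodes subunit a, no list held a promoter summit, and the nearest pooled one lay at −3286 bp. For cif-1, which encodes subunit m, only replicate 2 had one, at rank 23469 and −509 bp in a coding exon of yars-2. For eif-3.J the pooled summit ranked 2354 at −961 bp, in an exon of slc-25A46 outside the coding part. It ranked 2273 in replicate 1 at −967 bp and 9747 in replicate 2 at −953 bp. Weaker summits of eif-3.J lay nearer to its start, the nearest at −144 bp in replicate 2 (rank 22504). The optimal lines are the highest-scoring pooled lines, so genes without an optimal summit rank below them by construction. Among the members outside the optimal list, eif-3.B (1921) and eif-3.G (2160) ranked somewhat ahead of eif-3.J in the pooled list, and eif-3.K (7884) ranked behind it. In replicate 1 eif-3.J (2273) ranked ahead of eif-3.B (3745) and behind eif-3.G (1806). In replicate 2 eif-3.J (9747) ranked behind both.

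The 26 other genes grouped here as initiation factors include genes for eIF5A. Of the 26, 2 promoters (7.69%) held an optimal summit, and 18 (69.2%) held a pooled one. The optimal ones were iff-2, for an eIF5A protein, at rank 525 and −471 bp, and ppp-1, for the gamma subunit of eIF2B, at rank 648 and −756 bp. The ppp-1 summit lay inside C15F1.5 and within 200 bp of the small noncoding genes sup-39 and C15F1.14. Of 85 cytosolic ribosomal protein genes 9 (10.6%) held an optimal summit and 66 (77.6%) a pooled one. In the pooled list the share of eIF3 members was 70.0%, and 1 of the 3 other eIF3 subunits (33.3%) held a summit. Among the 5000 highest-scoring pooled lines, 6 of 10 members kept a summit. There 35 of 85 ribosomal protein genes (41.2%) and 8 of 26 other initiation factors (30.8%) had one. The members were chosen with their peaks known, so their shares are not ranked against these groups, and no test of these differences was made.

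**Figure D4:**
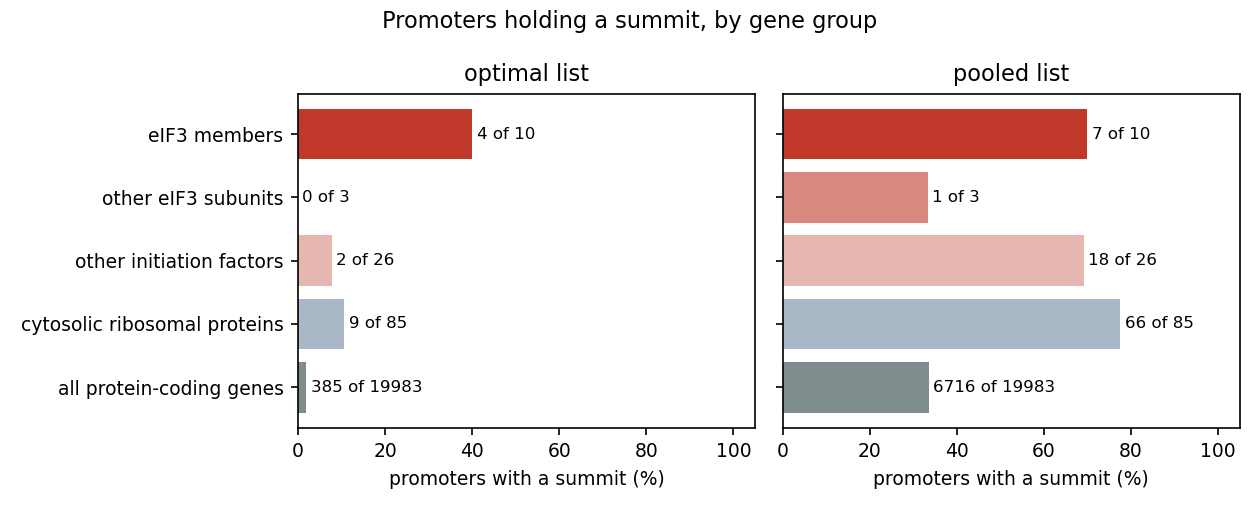
The bars give the percentage of promoters that held a summit of the optimal list (left) or the pooled list (right) in each gene group, from 0, with the counts beside them. In the pooled list the members (7 of 10), the other initiation factors (18 of 26) and the ribosomal protein genes (66 of 85) all stand above all protein-coding genes (33.6%), and in the optimal list the members were chosen with their 4 of 10 known.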

How the data were processed

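Regions were called by the authors in each replicate and in the pooled alignments against a control alignment, per the deposited read-me texts, which also say that the irreproducible discovery rate gave the optimal list. The sources used here give no aligner, caller or threshold. The deposited lists give, per region, the authors' score, whose scale is not stated and which was used only to rank lines within a list, and −log10 of the authors' q-value. They held 649 (optimal), 30000 (pooled), 30000 (replicate 1) and 26661 (replicate 2) lines, and the optimal lines were exactly the highest-scoring pooled lines. The lists hold no read counts, so depth is unknown and no counting interval is given.

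Summits were the region start plus the deposited offset. Genes and sequence came from RefSeq WBcel235, the same assembly as ce11. Windows at optimal or lower-ranked promoter summits leave out those within 200 bp of small RNA genes. Of 29 other factors 26 were found by symbol and 3 by sequence name. The text names all members, the other eIF3 subunits, other factors with an optimal summit, and neighbouring genes. The members, the gene lists and the first 5 6-mers were chosen with earlier results of these data known, while CAACGA with GTGGCG, and the matching of windows, were added after the values were seen. The bounds of −300 and −150 bp were not part of the plan. Window sizes, list lengths, overlap rules and leaving out each replicate were varied. Python 3.11.15, pandas 2.3.3, NumPy 2.4.6 and Matplotlib 3.10.9 were used, and the counting was checked on simulated data.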

Additional observations from a re-analysis of the deposited data

How the results depend on the processing

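Of 38 alternative settings, 34 left a member count within 1.5 times its value. In the upper part of the optimal list the count of members with an optimal summit was 1 (eif-3.C) and not 4, since the other 3 ranked lower. With the other replicate's top lines standing in for the optimal list, the count ranged from 3 to 4 when a replicate was left out: without replicate 1, eif-3.D was lost. CCGCAC was found in 2 member promoters (eif-3.C and eif-3.L) with 2000 bp upstream and in 0 on the gene strand alone, against 1. CAACGA was found in 1 member (eif-3.E) within 25 bp of the summit, against 4 within 75 bp, an alternative added after seeing the data. The count of members with a pooled summit ran from 6 to 9, and 9 was reached when any overlap of a region with the promoter was counted. Apart from the 5000 highest-scoring lines, the matching share of all promoters was not counted under these settings. These counts thus only describe the members. No paired analysis was possible because both samples belong to a single group and no test was made. Presence low in a list depends on its length, and depth behind the regions is unknown. How far the tag, the antibody or accessible chromatin contribute to these regions was not tested.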
